A study of Mus musculus with 6 samples.

Results

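The 36 genes described here form the core machinery of autophagy, were taken by gene symbol without use of their values, and were all found among the 49584 genes of the deposited count table. Autophagy delivers cytoplasm, organelles and protein aggregates to the lysosome inside a membrane vesicle, the autophagosome. A kinase complex built around ULK1 starts the process, a lipid kinase complex built around Beclin 1 and PIK3C3 marks the forming membrane with the lipid PI3P, and a pair of ubiquitin-like conjugation reactions attaches the LC3 and GABARAP proteins to that membrane. Cargo receptors such as p62 bind these proteins, and the pathway is known in the testis for its part in germ cell survival and in the remodelling of later spermatids.

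The cells were male mouse germ cells early in meiotic prophase (leptotene and zygotene), isolated by sorting from testes at postnatal day 12. There were 3 Smart-seq2 libraries of genotype Srp68 SKO and 3 of genotype Wild type. Smart-seq2 copies polyadenylated RNA of few cells into cDNA and amplifies it by PCR. The SRP68 protein belongs to the signal recognition particle, which brings ribosomes to the endoplasmic reticulum (ER), and the 2 genotypes are the only groups. The sources used here do not give what SKO stands for, any Cre driver, the deleted part of the gene, the strain or the number of animals behind each library, so p-values measure the spread between these libraries, which may be technical.

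Libraries held 14254224 to 15381473 counts in wild type and 11853738 to 12728853 in SKO (two-sided exact permutation test, p = 0.1, the smallest that 3 against 3 libraries allows). A count of 3 corresponded to 0.174 to 0.289 counts-per-million (CPM, scaled by the TMM method), a floor that covers counting error only. Srp68 itself was at 21.7, 29.3 and 22.6 CPM in wild type and 12.1, 6.52 and 6.93 CPM in SKO (log2 fold change −1.52; edgeR adjusted p = 0.00107), lower in every SKO library but not absent. All 10 leptotene and zygotene markers checked had counts, and their summed level was 14968 to 18744 CPM in wild type and 24761 to 32703 CPM in SKO. Of these 10, 8 were higher in SKO, Meiob did not pass, and Spo11, the gene of the enzyme that makes meiotic breaks, was lower (311 to 347 CPM in wild type, 234 to 277 CPM in SKO). The 8 pachytene markers summed to 420 to 465 CPM in wild type and 294 to 320 CPM in SKO, mostly from Tbpl1. Of the 5 tested, 4 were lower and Spata16 did not pass. Tbpl1 was at 327 to 362 CPM in wild type and 268 to 291 CPM in SKO. Ldhc was at 47.8 to 65.1 and 9.46 to 14.4 CPM, and Clgn at 37.1 to 56.5 and 12.4 to 15.1 CPM. Piwil1 was at 4.00 to 6.06 and 1.15 to 1.49 CPM. Pgk2, Adam3 and Ccna1 had too few counts to be tested. Macrophage markers summed to 31.1 CPM in SKO replicate 3 and to at most 2.26 CPM elsewhere, mostly from Lyz2, and globin-led erythroid markers ranged from 2.77 to 137 CPM in wild type and from 37.1 to 148 CPM in SKO. Peritubular myoid markers, 4 of 5 with a count, summed to 1.04 to 2.36 CPM in wild type and to 4.61 to 13.3 CPM in SKO, without overlap; Acta2 was called higher and Des had 0 counts in all 6 libraries. Leydig cell markers, 3 of 5 with a count, summed to 0.58 to 6.6 CPM in wild type and 4.86 to 9.03 CPM in SKO. Most of this came from Star, but in SKO replicate 2 Hsd3b1 was at 3.07 CPM beside 5.77 CPM of Star. Cyp11a1 and Cyp17a1 were at 0 counts in all 6 libraries. The erythroid gene Alas2 was also at 0 throughout. The part of stage markers and of other cell types in the results below was not tested. In such pooled cells, fewer cells of a type and less RNA per cell cannot be told apart.

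More of the autophagy genes fell than rose. Of the 34 that passed the filter on low counts, 11 were lower in SKO (32.4%), 6 were higher (17.6%) and 17 did not pass edgeR's quasi-likelihood test at an adjusted p under 0.05. Among all 13474 tested genes, 14.4% were lower and 14.1% were higher. The median log2 fold change was −0.24 over the 34 autophagy genes and −0.03 over all tested genes. For 22 of the 34 (64.7%) the SKO libraries lay wholly above or wholly below the wild type libraries, against 43.8% of all tested genes. Of the decreases, 7 were at least 2-fold on the fitted scale, and none of the 6 increases was. The genes that moved were divided within complexes and within families. On the TMM scale the summed level of all 36 genes overlapped between genotypes, 2224 to 2407 CPM in wild type and 2240 to 2296 CPM in SKO. The TMM factors were 1.07 to 1.13 in wild type and 0.879 to 0.957 in SKO. With library totals alone, the sums of all SKO libraries lie below those of all wild type libraries.

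**Figure D1:**
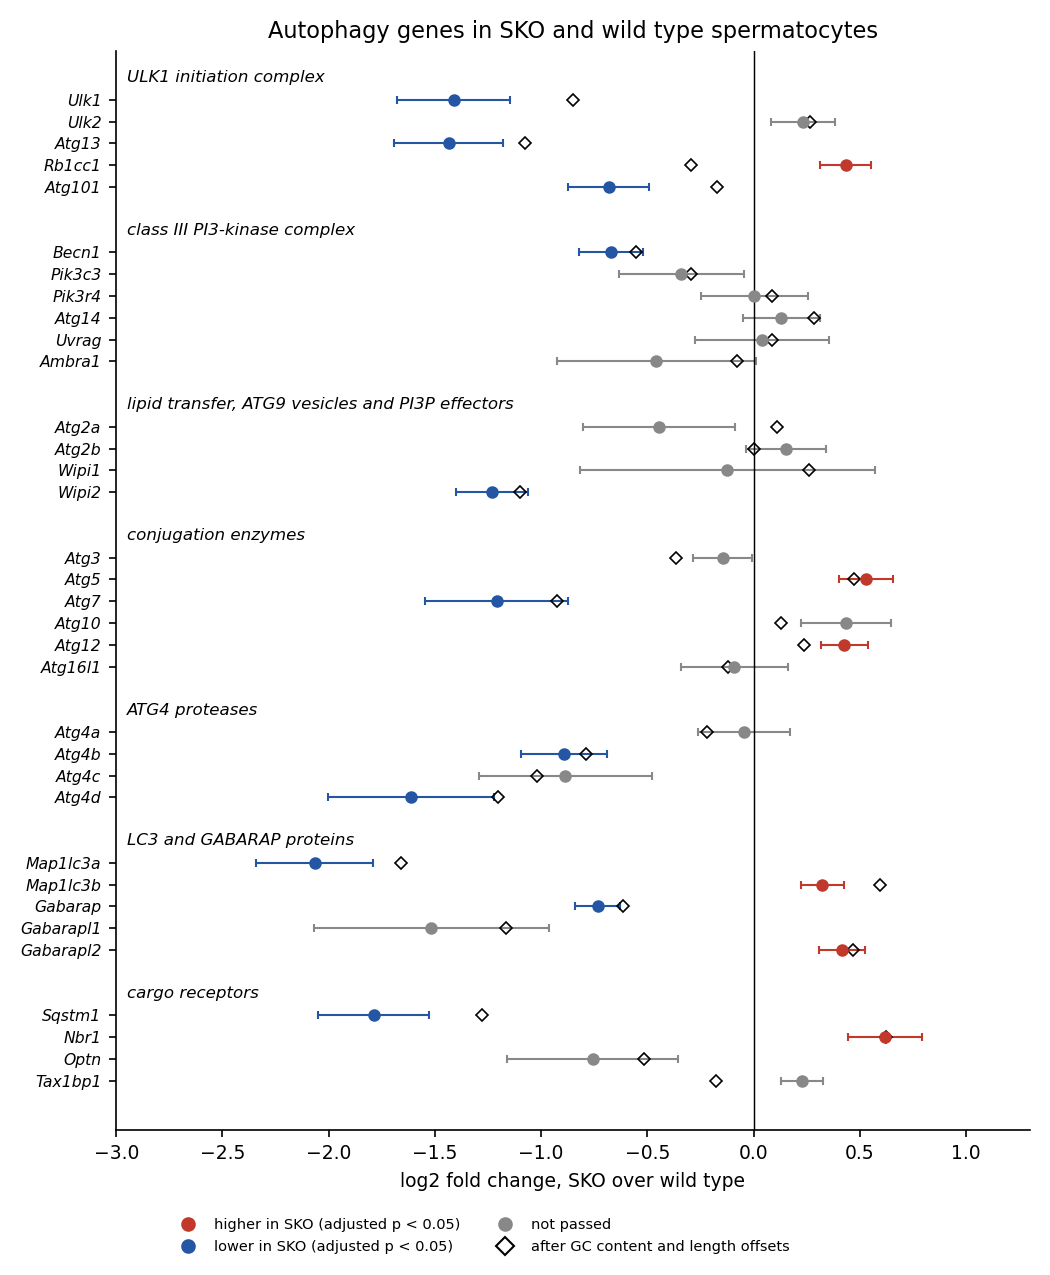
Log2 fold change of the 34 tested autophagy genes in SKO over wild type spermatocytes, by role in the pathway; filled points are estimates of edgeR's quasi-likelihood test with bars of 1 SE (3 libraries per genotype), and open diamonds the estimates after offsets for GC content and length. Map1lc3a, Sqstm1 and Atg4d lie farthest to the left, and the 6 genes that rose stay between 0.32 and 0.62.

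The LC3 and GABARAP genes, whose proteins become linked to the autophagosome membrane, split by member. Their products are made with a short tail that ATG4 proteases remove after a glycine, and that glycine is then joined to a membrane lipid. The ends of the coding sequences are printed because the tails of the family members differ here; capitals mark the last in-frame glycine codon, and the run ends with the stop codon (GENCODE vM21 principal transcripts, GRCm38, coding strand).
Map1lc3a: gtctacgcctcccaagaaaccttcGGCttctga
Map1lc3b: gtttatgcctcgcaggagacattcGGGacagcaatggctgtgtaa
Gabarap: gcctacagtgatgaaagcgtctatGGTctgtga
Gabarapl1: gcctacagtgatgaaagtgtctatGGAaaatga
Gabarapl2: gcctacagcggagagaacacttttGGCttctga
A tail of 1 codon follows the glycine codon in Map1lc3a, Gabarap, Gabarapl1 and Gabarapl2, and one of 5 codons in Map1lc3b. The coding sequences of Map1lc3a and Map1lc3b were identical at 76.5% of aligned bases and those of Gabarap and Gabarapl1 at 74.9%, and the other pairs at 53.4% to 63.8%. The longest run of bases shared exactly by any pair was 17, so within the coding sequence any longer read belongs to 1 of them.

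Map1lc3a fell the most of the 34 tested genes. It lies on GRCm38 chromosome 2, 155276297 to 155278073, plus strand. Its level was 66.5, 89.9 and 55.3 CPM in wild type replicates 1 to 3 and 24.2, 16.5 and 9.72 CPM in SKO replicates 1 to 3. Every SKO library was below every wild type library. The mean fell from 70.6 ± 17.6 to 16.8 ± 7.24 CPM (SD, n = 3 libraries each), a log2 fold change of −2.07 with an SE of 0.28 (edgeR adjusted p = 8.92e-05).

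Map1lc3b, which encodes the LC3 form most often used as an autophagosome marker, moved the other way. On chromosome 8, 121590361 to 121598760, it was at 325, 309 and 322 CPM in wild type and 381, 376 and 438 CPM in SKO. The groups did not overlap, and the rise, to 125% of the wild type mean, was small (log2 fold change 0.32 with SE 0.10; edgeR adjusted p = 0.0254). The call was lost without wild type replicate 1 (adjusted p = 0.0552) or 2 (0.0841) and without SKO replicate 2 (0.0532) or 3 (0.121). When libraries were scaled by their totals alone, without TMM, the log2 fold change was 0.06 (adjusted p = 0.653), and with offsets for GC content and length it was 0.60 (adjusted p = 0.00162). Of its runs of 75 bases, 4.09% also stand in transcripts of other genes, led by the predicted gene Gm6055.

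Gabarap fell and Gabarapl2 rose. Gabarap, on chromosome 11, 69991143 to 69994951, was at 189, 178 and 190 CPM in wild type and 115, 108 and 112 CPM in SKO. Replicates agreed closely and the groups were far apart, with a log2 fold change of −0.73 (SE 0.11; edgeR adjusted p = 0.000167). Gabarapl2, on chromosome 8, 111940703 to 111953612, was at 174, 182 and 201 CPM in wild type and 226, 262 and 255 CPM in SKO. All SKO libraries were the higher ones (log2 fold change 0.42, SE 0.11; edgeR adjusted p = 0.0103), although the call was lost without SKO replicate 2 (adjusted p = 0.0649) and with library totals (0.15; adjusted p = 0.271). Predicted genes such as Gm3724 share 9.53% of the 75-base runs of Gabarapl2.

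Gabarapl1, a close relative of Gabarap, was expressed at a low level, 7.67, 2.66 and 4.19 CPM in wild type and 2.47, 1.02 and 1.54 CPM in SKO. The SKO values were all below the wild type values but did not pass (log2 fold change −1.52, SE 0.55; edgeR adjusted p = 0.0547). It passed with DESeq2 (adjusted p = 0.0410), with library totals (0.0277), with a replicate block (0.0463) and without wild type replicate 2 (0.0345) or SKO replicate 1 (0.0465). An antisense gene, 1700101I11Rik, overlaps 28.3% of its exon length, and the reads of such a pair cannot be told apart here.

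Per kilobase of exon, the order of the 5 genes changed between genotypes. In wild type, Gabarap led with a mean of 101 CPM per kilobase, followed by Gabarapl2 with 79.7, Map1lc3a with 59.8, Map1lc3b with 42.4 and Gabarapl1 with 2.41. In SKO, Gabarapl2 led with 106, followed by Gabarap with 60.5, Map1lc3b with 53.0, Map1lc3a with 14.2 and Gabarapl1 with 0.833. The exon length counts the bases of all annotated transcripts, 7.517 kilobases for Map1lc3b and 1.181 for Map1lc3a, so levels per kilobase of a gene with long alternative ends are understated. The order within a genotype rests on these lengths.

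Ratios of related genes within a library do not depend on the scaling between libraries. The pairs given here were chosen after their values were seen, so the ratios are a description. Map1lc3b over Map1lc3a, both per kilobase, was 0.767, 0.540 and 0.913 in wild type and 2.48, 3.59 and 7.08 in SKO. Which of these 2 leads in wild type depends on the exon lengths used. Before division by length, Map1lc3b had the higher mean in both genotypes (318 against 70.6 CPM in wild type, 399 against 16.8 CPM in SKO). The change of the ratio between genotypes does not depend on these lengths. Gabarapl2 over Gabarap was 0.728, 0.809 and 0.840 in wild type and 1.56, 1.92 and 1.81 in SKO. The whole family summed to 761 to 771 CPM in wild type and 749 to 816 CPM in SKO, so on the TMM scale the summed level overlapped while its makeup did not. With library totals alone, the family sums of all SKO libraries lie below those of all wild type libraries.

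**Figure D2:**
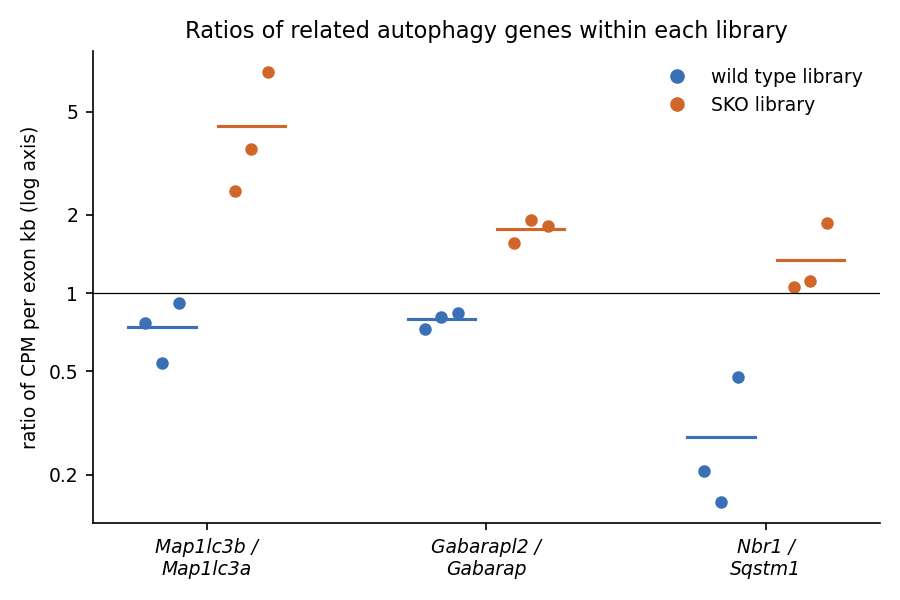
Ratio of CPM per kilobase of exon for 3 pairs of related autophagy genes (log axis), with 1 point per library and a bar at the mean of each genotype. For Map1lc3b over Map1lc3a and Gabarapl2 over Gabarap all wild type libraries lie below 1 and all SKO libraries above it, and Nbr1 over Sqstm1 goes from 0.158 to 0.476 in wild type to 1.06 to 1.86 in SKO. The position relative to 1 depends on the exon lengths used.

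The cargo receptors, which bind ubiquitinated cargo and LC3 proteins at once, had 1 gene lower, 1 higher and 2 not passed. That is 25.0% in each direction, against 14.4% lower and 14.1% higher of all tested genes. Sqstm1, the gene of p62, is on chromosome 11, 50199366 to 50210827, minus strand. Its level was 72.0, 85.7 and 40.1 CPM in wild type and 23.5, 19.7 and 14.0 CPM in SKO. Wild type replicate 3 was the lowest of its group and still above all SKO libraries (log2 fold change −1.79, SE 0.26; edgeR adjusted p = 0.000185). An opposite-strand gene, Mrnip, shares 17.3% of its exon length. Nbr1, a receptor related to p62, was at 30.5, 27.6 and 39.2 CPM in wild type and 50.8, 45.0 and 53.6 CPM in SKO.
The rise of Nbr1, with no overlap between groups, had a log2 fold change of 0.62 (SE 0.18; edgeR adjusted p = 0.0164). It was not called without wild type replicate 1 (adjusted p = 0.0554) or 2 (0.0694), without SKO replicate 3 (0.0660) or with library totals (0.36; 0.142). Nbr1 over Sqstm1 per kilobase was 0.207, 0.158 and 0.476 in wild type and 1.06, 1.12 and 1.86 in SKO. Tax1bp1, the most abundant receptor per kilobase in both genotypes, had 275, 251 and 261 CPM in wild type and 290, 305 and 327 CPM in SKO, and did not pass (log2 fold change 0.23; edgeR adjusted p = 0.105). Optn, the optineurin gene, was at 6.36 ± 0.704 and 3.77 ± 1.37 CPM (SD, n = 3 each) and did not pass either (−0.76; edgeR adjusted p = 0.184).

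The ULK1 complex, which receives nutrient signals from mTORC1 and AMPK, had 3 genes lower, 1 higher and 1 not passed. Of all tested genes, 14.4% were lower and 14.1% higher. Ulk1, the kinase gene, was at 14.8, 21.7 and 19.8 CPM in wild type and 7.90, 7.17 and 6.06 CPM in SKO. Atg13, whose protein bridges the kinase to its scaffold, was at 34.0, 36.2 and 19.6 CPM in wild type and 12.0, 11.5 and 9.62 CPM in SKO. Both genes were lower in every SKO library, at 37.5% and 36.9% of the wild type mean. Their log2 fold changes were −1.41 (SE 0.27; edgeR adjusted p = 0.00126) and −1.44 (SE 0.26; 0.000865), and that of Ulk1 was −0.85 with offsets for GC content and length (adjusted p = 0.0211).

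Atg101, which stabilises ATG13, was at 72.2, 82.7 and 58.5 CPM in wild type and 46.9, 53.6 and 32.4 CPM in SKO. The groups did not overlap (log2 fold change −0.68 with SE 0.19; edgeR adjusted p = 0.0159). The call was lost without wild type replicate 2 (adjusted p = 0.0760) or SKO replicate 3 (0.0641), and with offsets for GC content and length the value was −0.17 (adjusted p = 0.504). Rb1cc1, the gene of the large scaffold FIP200, was at 168, 210 and 214 CPM in wild type and 242, 284 and 274 CPM in SKO. The SKO libraries were higher (0.43, SE 0.12; edgeR adjusted p = 0.0141), without a call when wild type replicate 1 (0.0663) or SKO replicate 2 (0.0801) was left out or with library totals (0.17; 0.290). With offsets for GC content and length its direction turned (−0.29; adjusted p = 0.0505); its transcripts have the lowest GC content of the 34 genes, 38.8%. Ulk2, the second kinase gene of the complex, overlapped between groups at 59.3 ± 7.39 and 69.7 ± 9.19 CPM (SD, n = 3 each; edgeR adjusted p = 0.283).

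Of the 6 genes of the class III PI3-kinase complexes, which make PI3P, only Becn1 passed. That is 16.7% lower, near the 14.4% of all tested genes. Becn1 lies on chromosome 11, 101285952 to 101302286, minus strand, and was at 115, 102 and 80.8 CPM in wild type and 65.0, 56.0 and 66.6 CPM in SKO. All SKO values were lower (log2 fold change −0.67, SE 0.15; edgeR adjusted p = 0.00422). Exons of Cntd1, a meiotic crossover gene on the opposite strand at 101279012 to 101296317, cover 43.9% of its exon length. Cntd1 was at 51.0, 38.2 and 40.2 CPM in wild type and 10.9, 9.77 and 7.70 CPM in SKO. The mean difference was from 99.5 to 62.5 CPM for Becn1 and from 43.1 to 9.47 CPM for Cntd1, and since neither kit is described as keeping strand, the part of Cntd1 reads in the Becn1 value cannot be told apart.

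The partners of Beclin 1 showed no passed difference. The catalytic subunit gene Pik3c3 was at 13.0 ± 4.30 and 10.3 ± 1.29 CPM in wild type and SKO, and the regulatory subunit gene Pik3r4 at 12.4 ± 1.97 and 12.4 ± 0.545 CPM (SD, n = 3 each). Atg14, which directs the complex to autophagosome formation, was at 35.3 ± 6.5 and 38.7 ± 3.23 CPM, and Uvrag, which directs it to endosomes, at 11.8 ± 3.81 and 12.1 ± 3.15 CPM. Ambra1, a regulator of Beclin 1, was at 5.43 ± 3.17 and 3.96 ± 1.18 CPM. Groups overlapped for all 5, with edgeR adjusted p from 0.430 to 0.993 and standard errors of 0.18 to 0.47 on the log2 scale. Changes well above these errors could also be missed. Gabarapl1, for example, did not pass at a log2 fold change of −1.52 with an SE of 0.55 (edgeR adjusted p = 0.0547).

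Among the genes that act on the growing membrane, Wipi2 fell. WIPI2 binds PI3P and recruits ATG16L1 to the membrane. Its gene was at 136, 146 and 103 CPM in wild type and 67.5, 49.2 and 46.8 CPM in SKO. The SKO level was 42.6% of wild type with no overlap (log2 fold change −1.23, SE 0.17; edgeR adjusted p = 0.000115), and the value with offsets for GC content and length was −1.10. The related Wipi1 was at 1.84 ± 0.853 and 1.69 ± 0.805 CPM (SD, n = 3 each), which per kilobase in wild type is 0.416 against 12.1 for Wipi2, and did not pass (edgeR adjusted p = 0.920). The lipid transfer protein genes Atg2a (6.90 ± 0.887 and 5.06 ± 1.52 CPM) and Atg2b (32.0 ± 3.69 and 35.6 ± 5.90 CPM) did not pass either (edgeR adjusted p = 0.393 and 0.593). Atg9a, the gene of the lipid scramblase of autophagic vesicles, had 8, 1 and 23 counts in wild type and 2, 18 and 7 in SKO, too few to be tested, and 32.6% of its exon length is shared with other genes.

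The conjugation enzymes, which link ATG12 to ATG5 and LC3 proteins to lipid, had 2 genes higher, 1 lower and 3 not passed. These are 33.3% higher, against 14.1% of all tested genes, and 16.7% lower, near the 14.4% of all. Atg5 was at 111, 113 and 104 CPM in wild type and 152, 183 and 138 CPM in SKO. Atg12, which encodes the partner of ATG5, was at 101, 98.0 and 99.2 CPM in wild type and 133, 130 and 137 CPM in SKO. In both genes every SKO library was above every wild type library, with replicates of Atg12 within a few CPM of each other. The log2 fold changes were 0.53 (SE 0.13; edgeR adjusted p = 0.00610) and 0.43 (SE 0.11; 0.0100). Without SKO replicate 2, Atg5 was not called (adjusted p = 0.0564), and with library totals the values were 0.27 (0.142) and 0.16 (0.294). With offsets for GC content and length, Atg12 was not called (0.24; adjusted p = 0.130).

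Atg7, the activating enzyme at the head of both reactions, was at 8.38, 11.1 and 8.12 CPM in wild type and 4.53, 3.26 and 4.14 CPM in SKO. It fell in every SKO library (log2 fold change −1.21, SE 0.34; edgeR adjusted p = 0.0152), but not past the threshold without wild type replicate 2 (adjusted p = 0.0685), without SKO replicate 2 (0.0620) or with offsets for GC content and length (−0.93; 0.0528). The conjugating enzyme gene Atg10 stood at 18.4 ± 3.37 and 24.9 ± 0.899 CPM (SD, n = 3 each; edgeR adjusted p = 0.142), with no overlap between groups. Atg3, the conjugating enzyme for LC3, stood at 60.4 ± 3.88 and 54.6 ± 2.89 CPM (edgeR adjusted p = 0.478), again without overlap, and passed as lower with library totals (−0.41; 0.0426). Atg16l1, whose protein places the ATG12 and ATG5 conjugate on the membrane, stood at 21.2 ± 6.92 and 19.9 ± 2.41 CPM (edgeR adjusted p = 0.828).

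Of the 4 genes of the ATG4 proteases, which trim LC3 proteins and later free them from lipid, 2 were lower. The shares of all tested genes were 14.4% lower and 14.1% higher. Atg4b, the gene of the main LC3 protease, was at 99.3, 113 and 107 CPM in wild type and 82.0, 46.3 and 43.5 CPM in SKO. SKO replicate 1 stood apart from the other SKO libraries but was below all wild type libraries (log2 fold change −0.89, SE 0.20; edgeR adjusted p = 0.00434). Atg4d, the lowest of the 4 per kilobase in both genotypes, was at 8.57, 10.2 and 6.55 CPM in wild type and 3.70, 2.61 and 1.92 CPM in SKO, a fall to 32.5% (−1.61, SE 0.39; 0.00689), and shares 19.3% of its exon length with Kri1 on the other strand. Atg4c, with 1 high wild type library (20.4, 8.11 and 7.79 CPM against 7.65, 7.82 and 4.14 CPM in SKO), did not pass (edgeR adjusted p = 0.122). The X-linked Atg4a was at 23.5 ± 4.72 and 22.7 ± 3.44 CPM (edgeR adjusted p = 0.908), and 41.3% of its 75-base runs also stand in other genes, chiefly Atg4a-ps, so its value is uncertain.

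**Figure D3:**
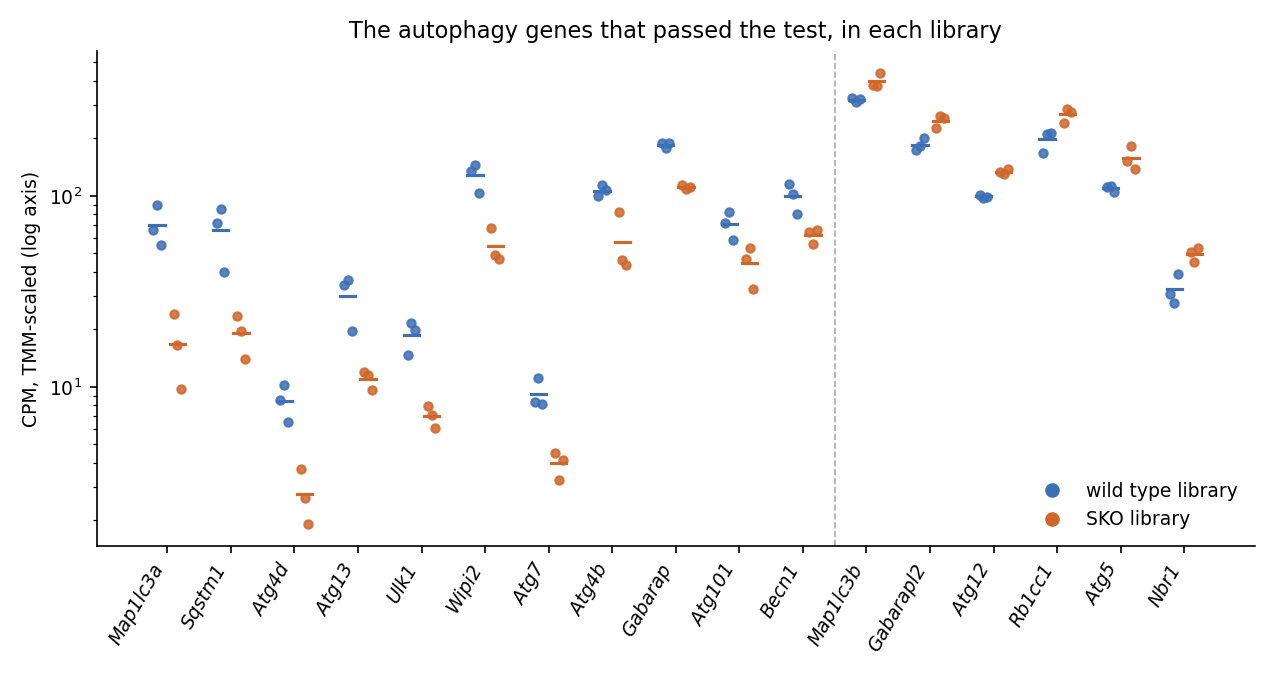
TMM-scaled CPM (log axis) of the 17 autophagy genes that passed the test, with 1 point per library and a bar at the mean of each genotype, ordered by log2 fold change; the dashed line separates the 11 lower from the 6 higher genes. In all 17 the SKO points lie wholly on one side of the wild type points, as in 43.8% of all tested genes. Selection by the test favours such separation, so it adds no support to the calls.

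TFEB is a transcription factor that induces autophagy and lysosome genes by binding the CLEAR element, a longer form of the motif CACGTG. Its own gene had 22, 2 and 4 counts in wild type and 2, 2 and 1 counts in SKO, too few to be tested. RefSeq promoter entries (GRCm38.p6, each a window of 300 bases around an annotated start) covered 30 of the 36 genes with 36 entries. CACGTG, which reads the same on both strands, stood in 4 of these entries (11.1%) and in 7.15% of all 32851 entries, and the longer TCACGTGA, which contains it, in 1 (2.78%) and in 0.974%. The motif TGATGNAA on either strand, bound by ATF4, a factor of the amino acid and ER stress response, stood in none of the 36 entries and in 3.97% of all. The start of 33 of the 36 entries lay within 100 bases of a transcript start that GENCODE gives for the same gene, and that of 23 within 100 bases of the gene's own outermost start. The stretches of Atg5, which rose, and Atg3, which did not pass, are shown, with every CACGTG in capitals and distances counted to the RefSeq start.
Atg5 (chr10:44268303-44268338, plus strand, motif 14 bases before the start): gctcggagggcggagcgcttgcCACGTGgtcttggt
Atg3 (chr16:45158735-45158786, plus strand, motifs 94 and 72 bases before the start): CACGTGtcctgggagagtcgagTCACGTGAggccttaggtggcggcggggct
Atg3 thus held CACGTG at 2 places, the nearer within TCACGTGA. The other 2 matches were at starts inside the gene. The only Atg7 entry starts 28.0 kilobases inside the gene and 9066 bases from the nearest GENCODE transcript start, and that of Atg14, where the motif begins 1 base before the start, 2215 bases inside the gene at a GENCODE transcript start. A match is a description of these letters and no measure of binding.

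Across the 34 genes, the log2 fold change followed the GC content of the transcripts. Pearson's r was −0.66 and Spearman's rho −0.68 over the 34 genes, which share the same 6 libraries, and −0.31 and −0.35 over the 13452 tested genes with a known GC content. The 11 genes that fell had a median GC content of 53.0% (50.1% to 61.1%) and the 6 that rose 46.7% (38.8% to 53.2%). Over all tested genes the median log2 fold change went from 0.32 in the fifth of genes poorest in GC to −0.53 in the richest. Its part in each gene's value was not tested, but the measurement with each library's trend on GC content and length taken out can be given. On that scale 9 of the autophagy genes were lower and 4 higher, where 12.3% of all genes were lower and 10.8% higher.

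The genes called lower with the offsets were Ulk1, Atg13, Becn1, Wipi2, Atg4b, Atg4d, Map1lc3a, Gabarap and Sqstm1, and those called higher Atg5, Map1lc3b, Gabarapl2 and Nbr1. Map1lc3a stood at −1.66 and Sqstm1 at −1.28 in place of −2.07 and −1.79. These 9 lower genes were also called lower in all 18 alternative analyses, 6 of which left out a library each. No alternative separated the reads of overlapping genes, which share 43.9% of the exon length of Becn1, 19.3% of Atg4d and 17.3% of Sqstm1. None of the 6 higher genes was called in all 18.

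**Figure D4:**
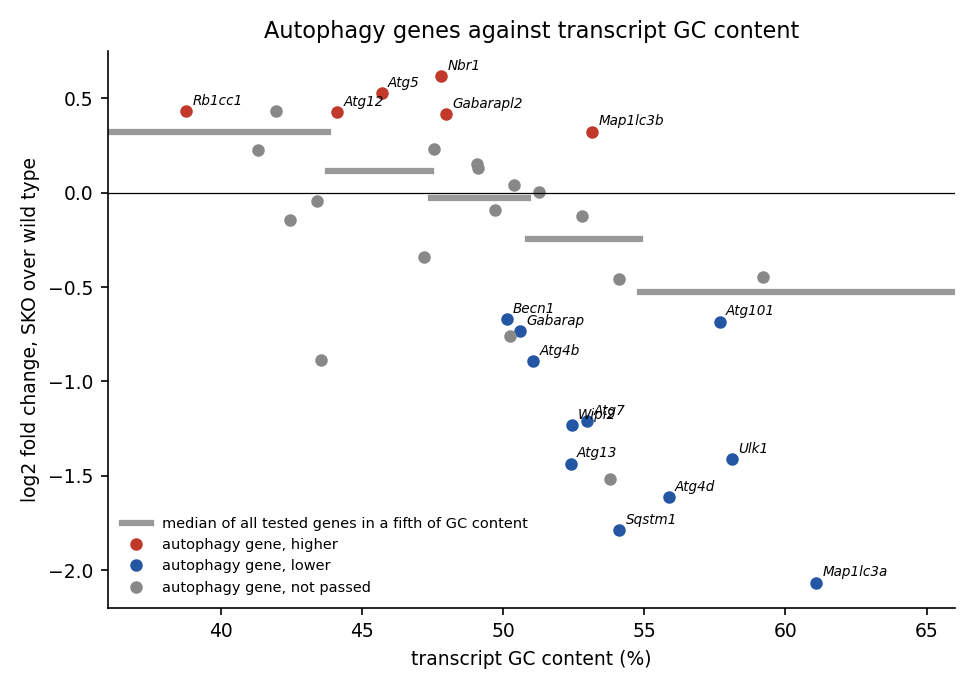
Log2 fold change of the 34 tested autophagy genes against the GC content of their transcripts (%), with the genes that passed the test named; grey bars are medians of all tested genes in 5 bins of GC content. The genes that fell lie at 50.1% GC or more, and Map1lc3a, at 61.1%, is the lowest point.

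Whether the rises were called depended on the scaling between libraries, and also on single libraries and on the offsets for GC content and length. When libraries were scaled by their totals alone, 13 of the 34 autophagy genes were lower and 0 higher in edgeR's quasi-likelihood test (0 higher also at an unadjusted p under 0.05), where 23.5% of all genes were lower and 7.5% higher. That scaling moved the median of all tested genes from −0.03 to −0.29. Relative to the median of all genes, the autophagy median was −0.21 with TMM and −0.22 with library totals, Map1lc3a −2.04 and −2.03, and Nbr1 0.65 and 0.65. A change of scaling moves all genes by nearly the same amount, so this likeness was fixed in advance and adds no support. The autophagy genes called higher numbered 3 when wild type replicate 1 was left out and 2 when SKO replicate 2 was.

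The steps after closure of the autophagosome and the selective receptors were read from a wider list of 55 further genes of the pathway, 54 of them tested, of which 10 were lower (18.5%, against 14.4% of all tested genes) and 3 higher (5.56%, against 14.1%). When libraries were scaled by their totals alone, 17 of the 54 were lower and 2 higher, where 23.5% and 7.5% of all genes were. With offsets for GC content and length, 8 were lower and 2 higher, where 12.3% and 10.8% of all genes were. Among these were Tmem41b and Fundc1 (lower) and Trp53inp2 (higher), not called with TMM alone. The median log2 fold change of the 54 was −0.24 with TMM and −0.015 with these offsets. The shares of 14.4% lower and 14.1% higher of all tested genes stand behind each count by role that follows. Of 13 tested genes for fusion with the lysosome, 4 were lower (30.8%, against 14.4% of all tested genes) and 0 higher (against 14.1%) in edgeR's quasi-likelihood test (0 at an unadjusted p under 0.05, with DESeq2 and with limma-voom). Rab7, the GTPase of late endosomes, fell from 75.4 ± 8.22 to 37.6 ± 5.34 CPM (SD, n = 3 each; log2 fold change −1.0; edgeR adjusted p = 0.000321). Vps41, of the HOPS tethering complex, fell from 87.1 ± 13.0 to 58.2 ± 7.52 CPM (0.0112), not called without SKO replicate 2 (0.0664). Vps11, a core subunit of the same complex, fell from 27.7 ± 2.51 to 17.0 ± 3.12 CPM (0.0235), and Epg5, a fusion tether, from 21.4 ± 3.46 to 12.9 ± 1.83 CPM (0.0330). Calls of both were lost without some single libraries: Vps11 without wild type replicate 1 (0.0514) or 2 (0.0824) or SKO replicate 2 (0.0611) or 3 (0.0956), and Epg5 without wild type replicate 2 (0.113) or 3 (0.0746) or SKO replicate 1 (0.0933) or 3 (0.0850). With offsets for GC content and length Vps11 was not called either (−0.38; 0.182).

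Receptors that send pieces of the ER to autophagosomes had 1 higher, 1 lower and 7 not passed of 9 tested (11.1% in each direction). Sec62, which also encodes a translocon-associated protein of post-translational import, rose from 340, 301 and 410 CPM in wild type to 546, 629 and 651 CPM in SKO. The groups were well apart (log2 fold change 0.80, SE 0.12; edgeR adjusted p = 0.000241), with 0.52 after offsets for GC content and length (0.00106). Tex264 fell from 53.3, 38.7 and 43.8 CPM to 22.4, 18.1 and 21.0 CPM. Its log2 fold change of −1.14 (SE 0.19; edgeR adjusted p = 0.000469) was −0.40 and not called with the offsets (0.190).

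Genes of mitophagy and other cargo receptors included 5 lower (45.5%) and 1 higher (9.09%) of 11. Pink1, the kinase that marks damaged mitochondria, fell from 17.8 ± 5.12 to 4.62 ± 2.92 CPM (SD, n = 3 each; log2 fold change −1.94; edgeR adjusted p = 0.00219), with −1.29 after the offsets. Phb2, a prohibitin of the inner mitochondrial membrane, fell from 84.1 ± 19.8 to 26.1 ± 7.76 CPM (−1.69; 8.66e-05). Ncoa4, the ferritin receptor, fell from 35.9 ± 2.41 to 21.8 ± 1.40 CPM (−0.72; 0.00775). Tollip, an adaptor for ubiquitinated cargo, fell from 57.5 ± 4.53 to 38.4 ± 1.18 CPM (−0.58; 0.00874), and was not called with the offsets (−0.29; 0.16). The remaining pair is named after its values were seen. Fkbp8 was lower (−1.35; edgeR adjusted p = 0.0105), but not past the threshold without wild type replicate 2 (0.0773), without SKO replicate 2 (0.0531) or with the offsets (0.132). Bcl2l13 was higher (0.87; edgeR adjusted p = 0.0452), and not called without wild type replicate 1 (0.0824) or 3 (0.126), without SKO replicate 1 (0.0769), 2 (0.0908) or 3 (0.139), or with the offsets (0.0652). Of 10 other assembly factors 1 passed, Trp53inp1, a stress-induced LC3-binding protein gene, which rose from 56.0 ± 3.06 to 90.3 ± 6.33 CPM (0.69; 0.00127; 0.26 and 0.157 with the offsets).

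Upstream kinases and factors, among them Mtor and the AMPK subunit genes, had 0 of 11 called in edgeR's quasi-likelihood test, with 2, Mtor and Mitf, at an unadjusted p under 0.05. DESeq2 and limma-voom gave the same counts. When libraries were scaled by their totals alone, 1 of the 11, Mtor, was called lower (−0.64; edgeR adjusted p = 0.0165), and 2, Mtor and Stk11, had an unadjusted p under 0.05.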

How the data were processed

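Per the labels, 3 SKO and 3 wild type Smart-seq2 libraries were made from sorted spermatocytes. The authors deposited raw read counts per gene, whole numbers with no normalization. Per the submitters' processing notes, FastQC, Trim Galore 0.6.4, HISAT2 2.0.5 and the builds GRCm38 and mm10 were used; neither counter, strand setting nor counting annotation was stated. Columns named CKO were assigned to SKO by genotype and replicate number. Without molecular identifiers or strand, PCR copies and overlapping genes cannot be separated, and a floor covers counting error only.

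Symbols, exon lengths and GC content came from GENCODE vM21. In R 4.3.3 with edgeR 4.0.16, filterByExpr kept 13474 genes, which were scaled by TMM and tested by the two-sided quasi-likelihood test (genotype as the only term; Benjamini-Hochberg adjusted p under 0.05; biological coefficient of variation 0.304). Every adjusted p in the text is from edgeR unless DESeq2 1.42.0 or limma-voom (limma 3.58.1) is named. An alternative added offsets from each library's loess trend (span 0.3) on GC content and length over 13452 genes. In all, 18 alternatives were run, and the fit was tested on simulated data. The simulation had the same dispersion for all genes, changes balanced in direction and no GC trend. It therefore does not bear on calls that depend on GC content or scaling. All 36 genes are named, and from each role of the wider list up to 4 called genes by smallest p, with separate groups and at least 5 CPM in the higher one; Srp68 and Cntd1 were added as checks. The genes, lists and rules were chosen with earlier results of these data known. A table of protein sequences was not used here, so identity is of coding sequences.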

Additional observations from a re-analysis of the deposited data

How the results depend on the processing

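Of the 11 autophagy genes that fell, 9 were called lower in all 18 alternatives, and Atg101 and Atg7 were not. The alternatives did not separate the reads of overlapping genes, as at Becn1. None of the 6 that rose was called in all 18. With library totals alone, 1010 genes were higher and 3168 lower, 0 autophagy genes were higher, and the autophagy median was −0.51. Leaving out a library each gave 2 to 6 autophagy genes higher and a median of −0.34 (without wild type replicate 3) to −0.17.

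Signs turned for 1 called gene, Rb1cc1, and otherwise for genes that had not passed; the cause was not tested. With library totals the log2 fold changes were −0.034 for Ulk2, −0.25 for Pik3r4, −0.13 for Atg14, −0.22 for Uvrag, −0.12 for Atg2b and −0.036 for Tax1bp1. With offsets for GC content and length they were −0.29 for Rb1cc1, 0.11 for Atg2a, 0.26 for Wipi1 and −0.17 for Tax1bp1. With the replicate block and these offsets they were −0.29 for Rb1cc1, 0.037 for Ambra1, 0.090 for Atg2a, −0.0086 for Atg2b, 0.27 for Wipi1 and −0.17 for Tax1bp1. Pik3r4 was −0.0045 with no filter on low counts and −0.0039 with a filter of 5 CPM in 3 libraries. Leaving out a library each gave −0.10 to 0.13 for Pik3r4, −0.0070 to 0.25 for Atg14, −0.21 to 0.23 for Uvrag, −0.73 to 0.13 for Ambra1, −0.58 to 0.30 for Wipi1, −0.29 to 0.18 for Atg16l1 and −0.18 to 0.13 for Atg4a.

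Same-numbered wild type and SKO libraries did not deviate together (correlations 0.02, −0.05 and 0.04), and differently numbered ones had correlations from −0.099 to 0.084. With 3 libraries per genotype these values cannot exclude a pairing, and the labels state none. With the replicate block, 1976 genes were higher and 1991 lower, among them 6 and 12 autophagy genes, the added call being Gabarapl1.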
